A study of Mus musculus with 24 samples.

Results

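The 33 genes described here mark cells that are not of neural origin: 11 endothelial genes, 5 mural genes, 9 microglial genes, 3 meningeal genes and 5 erythroid genes. They were taken by name from marker lists, not by any value measured here, and are 33 of the 39017 genes in the count tables. RNA was sequenced from 24 libraries of sorted cells of the mouse cerebral cortex at stage E15.5, with 4 biological replicates in each of 6 groups. Every embryo carried a homozygous floxed Prdm16 allele (Prdm16 flox/flox). The WT groups carried that allele alone, and the KO groups also carried Emx1-Ires-Cre, a recombinase expressed from the Emx1 locus. Each genotype was sorted into PAX6+ cells (radial glia, the stem cells lining the ventricle), TBR2+ cells (intermediate progenitors) and cells lacking both proteins (PAX6-TBR2-, given as neurons). Only KO embryos had Cre, so what Cre or its insertion at Emx1 may do cannot be told apart from the loss of Prdm16.

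Blood vessels grow into the embryonic cortex from a plexus in the meninges, the connective tissue sheets around the brain. Their walls hold endothelial cells, sealed by junction proteins and guided by VEGF, angiopoietin and Wnt signals from neural cells, and mural cells, which include pericytes and are recruited by PDGF. Microglia, the resident macrophages of the brain, derive from the yolk sac and depend on the receptor CSF1R, while erythroid cells circulate in the vessel lumen and make haemoglobin. These cell types arise outside the Emx1 lineage, which in the cortex gives rise to radial glia, excitatory neurons and glia. A sort on the nuclear proteins PAX6 and TBR2 has no gate against non-neural cells in the description used here, and a cell with neither protein falls into the PAX6-TBR2- population by definition.

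Promoter windows are shown for 2 endothelial and 2 microglial members. In all 4 the motif AGGAAGT, of ETS-family transcription factors, lay at nearly the same distance from the gene's start. ETS factors, among them ERG in endothelial cells and PU.1 in myeloid cells, are regulators that both cell types use. The windows are the 250 bases before the start annotated by RefSeq on GRCm38.p6, written 5′ to 3′ on the gene's own strand, with the motif in capitals. Eng encodes endoglin, a TGF-beta co-receptor (chr2:32646345-32646594, plus strand), and Flt1 encodes VEGF receptor 1 (chr5:147726012-147726261, minus strand). C1qb encodes a chain of complement C1q (chr4:136886201-136886450, minus strand), and P2ry12 encodes a purinergic receptor of resting microglia (chr3:59262986-59263235, minus strand).
Eng: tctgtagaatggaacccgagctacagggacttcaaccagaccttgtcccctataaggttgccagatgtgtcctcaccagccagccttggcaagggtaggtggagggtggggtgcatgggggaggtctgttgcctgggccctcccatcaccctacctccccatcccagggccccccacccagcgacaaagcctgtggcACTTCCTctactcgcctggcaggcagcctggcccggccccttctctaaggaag
Flt1: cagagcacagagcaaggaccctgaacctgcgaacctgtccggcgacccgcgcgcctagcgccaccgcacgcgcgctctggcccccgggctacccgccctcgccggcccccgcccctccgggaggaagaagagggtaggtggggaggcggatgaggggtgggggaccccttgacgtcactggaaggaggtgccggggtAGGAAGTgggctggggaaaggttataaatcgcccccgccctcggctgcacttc
C1qb: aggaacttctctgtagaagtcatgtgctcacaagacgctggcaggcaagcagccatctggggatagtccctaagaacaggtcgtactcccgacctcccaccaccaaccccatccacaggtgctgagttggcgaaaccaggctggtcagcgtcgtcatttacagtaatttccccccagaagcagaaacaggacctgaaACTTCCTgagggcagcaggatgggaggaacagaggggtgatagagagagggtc
P2ry12: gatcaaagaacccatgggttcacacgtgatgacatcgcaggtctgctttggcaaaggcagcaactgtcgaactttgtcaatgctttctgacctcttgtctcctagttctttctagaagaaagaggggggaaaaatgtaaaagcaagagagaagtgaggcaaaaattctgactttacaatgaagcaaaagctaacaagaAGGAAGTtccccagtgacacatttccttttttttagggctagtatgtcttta
The motif AGGAAGT was searched on both strands, so that it reads ACTTCCT in Eng and C1qb. Shorter or variant ETS sites were not searched. Counted from the gene's start, it lay at -53 to -47 in Eng, Flt1 and C1qb and at -52 to -46 in P2ry12. In the members Egfl7 (-217 to -211 and -80 to -74) and C1qc (-195 to -189) it lay elsewhere, so the position is not common to these classes. It was present in 4 of 10 endothelial windows (8 genes, with 3 windows for Egfl7, of which 2 held it) and in 3 of 6 microglial windows, in 0 of 4 mural and 0 of 5 erythroid windows, and in 7.7% of all 32536 windows of the same length. The GATA motif AGATAA, bound by the erythroid factor GATA1, was present in 2 of 5 erythroid windows (Hbb-bs and Alas2), 1 of 4 mural windows (Rgs5), none of the endothelial and microglial windows and 9.97% of all windows. A window was found for 24 of the 33 members, and a match of letters is a description of the sequence only.

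Library totals ran from 4948977 to 30027954 counts, and the deepest, PAX6-TBR2- replicate 4 of WT, was followed by one of 12554161 counts. The mitochondrial share of a library was 11.3% to 23.98% for PAX6+, 24.7% to 39.3% for TBR2+ and 20.4% to 26.1% for PAX6-TBR2- cells. PAX6+ libraries were deposited in a count table apart from the other sorts, so a contrast of PAX6+ with another sort cannot be told apart from a difference between these tables. Each sort also has a library prefix of its own in the column names. In every contrast between sorts, TBR2+ against PAX6-TBR2- included, sort and prefix cannot be told apart. Levels are given in CPM, a gene's counts relative to the size of its library, after scaling of the 24 libraries to each other, and library values are listed from replicate 1 to replicate 4. Prdm16 itself measured 268, 243, 288 and 209 CPM in WT PAX6+ libraries and 225, 181, 182 and 160 CPM in KO PAX6+ libraries (log2 fold change -0.43, SE 0.12, edgeR adjusted p = 0.05798). It stood at 55.6 ± 15.97 CPM (SD, n = 4) in WT and 52.3 ± 7.94 CPM in KO intermediate progenitors, and at 25.2 ± 8.34 and 18.9 ± 7.46 CPM in the neuron sorts. The deleted exons are not named in the labels, so these counts over the whole gene check the genotypes only in part. The sorted genes followed their labels: Pax6 was at 434 and 29.9 CPM in WT PAX6+ and PAX6-TBR2- cells, Eomes (the gene of TBR2) at 930 CPM in WT TBR2+ cells and 77.5 CPM or less in the other WT groups, and the neuronal tubulin gene Tubb3 at 8.51, 421 and 496 CPM in WT PAX6+, TBR2+ and PAX6-TBR2- cells. Of 6 choroid plexus markers, none had a mean above 0.65 CPM in any group.

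All 33 members had at least 1 read in the series, and most were rare. Summed over 31 members, without Slc2a1 and Alas2, the level ranged from 5.97 CPM in KO TBR2+ replicate 4 to 86.5 CPM in WT PAX6-TBR2- replicate 3. The PAX6-TBR2- population had the highest mean for 28 of 33 members in WT and for 28 of 33 in KO. Of the 23 members that passed a filter on low counts over all 24 libraries, 18 in WT and 19 in KO were highest there, against 33.4% of 15091 genes that passed it in either genotype. A rare member could pass this filter only through the population where it was highest, so these counts depend partly on the filter. In bulk RNA of this kind, fewer cells of a type and less RNA per cell cannot be told apart.

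**Figure D1:**
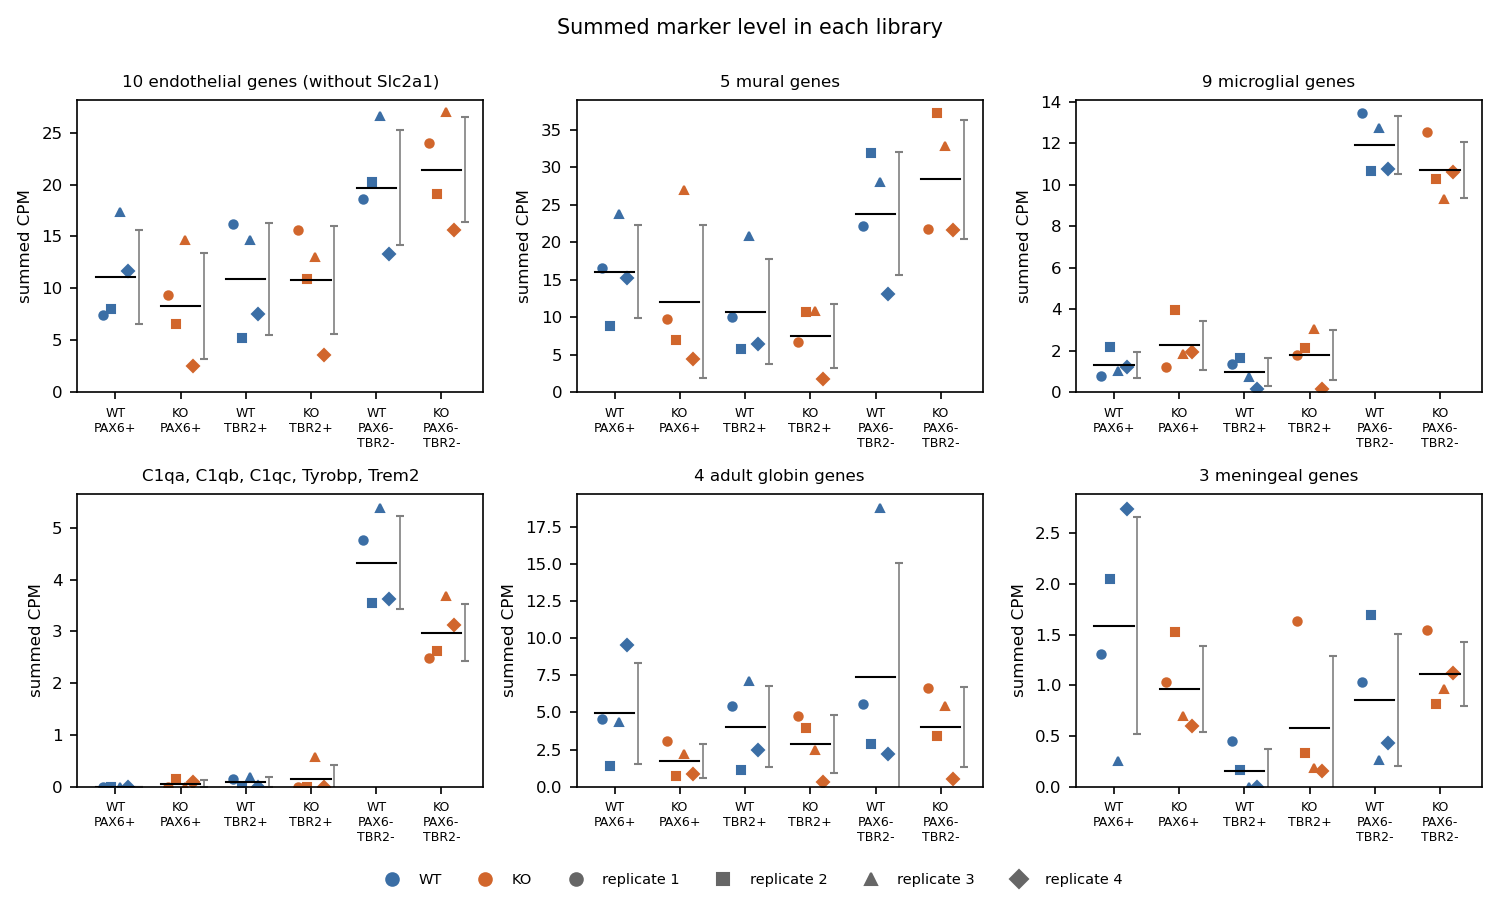
Summed level (CPM, linear axes from 0) of the marker classes, the C1q, Tyrobp and Trem2 genes and the globins in every library, with 1 point per library, a black line at the mean of each group of 4 and a grey bar of 1 SD to each side. The microglial sums of all 8 PAX6-TBR2- libraries, at 9.31 CPM or more, lie above those of all 16 other libraries, at 3.98 CPM or less, while the endothelial, mural, meningeal and globin sums overlap between populations.

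Microglial genes gave the only class sum whose PAX6-TBR2- libraries, taken over both genotypes, did not overlap with the other sorts. The sum of the 9 microglial members was 13.5, 10.7, 12.7 and 10.8 CPM in WT PAX6-TBR2- libraries and 12.6, 10.3, 9.31 and 10.6 CPM in KO. In PAX6+ libraries it was 0.787, 2.19, 1.00 and 1.22 CPM in WT and 1.24, 3.98, 1.84 and 1.95 CPM in KO. TBR2+ libraries ranged from 0.164 to 1.63 CPM in WT and from 0.157 to 3.03 CPM in KO, so no progenitor library reached the lowest PAX6-TBR2- library.

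Csf1r encodes the receptor for CSF1 and IL-34 that microglia need to survive. It measured 4.14, 3.38, 4.07 and 4.06 CPM in WT PAX6-TBR2- libraries against 0.262, 1.16, 0.0628 and 0.508 CPM in WT PAX6+ libraries, which lay all below (log2 fold change of PAX6+ over PAX6-TBR2- -2.97, SE 0.62, edgeR adjusted p = 0.0002214). The same contrast in KO was -2.37 (SE 0.58, edgeR adjusted p = 0.001226), and again the groups did not overlap. Of the exon bases of Csf1r, 873 of 5774 are shared with Hmgxb3 on the opposite strand, whose mean was 26.7 to 29.8 CPM in all 6 groups, and the counting is not stated to use strand. The part of Hmgxb3 reads in the Csf1r level was not tested.

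Cx3cr1 encodes the receptor for the neuronal chemokine fractalkine. Its WT PAX6-TBR2- libraries held 3.11, 1.86, 1.84 and 1.98 CPM and its WT PAX6+ libraries 0, 0.137, 0 and 0.203 CPM (log2 fold change -4.62, SE 0.62, edgeR adjusted p = 9.108e-07). WT TBR2+ libraries of Cx3cr1 were as low, at 0.152, 0.163, 0 and 0 CPM (-4.45, SE 0.63, edgeR adjusted p = 5.542e-06). In KO the same contrasts gave log2 fold changes of -2.90 in PAX6+ and -1.98 in TBR2+ cells, both called.

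The complement genes C1qa, C1qb and C1qc, together with Tyrobp and Trem2, which encode a signalling adaptor and the lipid receptor coupled to it, are macrophage genes with little expression in neural cells. These 5 genes had 0 reads among 41129536 counts of WT PAX6+ cells, 3 among 36974810 of KO PAX6+ cells, 2 among 27529652 of WT TBR2+ cells and 3 among 30144389 of KO TBR2+ cells. PAX6-TBR2- cells had 186 reads of them among 49757193 in WT and 80 among 28191202 in KO.

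C1qb measured 2.48, 1.35, 1.71 and 1.90 CPM in WT PAX6-TBR2- libraries and 0 in all 4 WT PAX6+ libraries, at least 32.2-fold higher against a floor of 3 counts over the PAX6+ group (edgeR adjusted p = 8.741e-07). C1qc measured 1.86, 1.52, 2.76 and 0.791 CPM there, at least 29.9-fold higher than in WT PAX6+ cells by the same floor (edgeR adjusted p = 1.445e-06). Against KO PAX6+ cells, C1qb in KO PAX6-TBR2- cells was at least 8.91-fold higher and was called as well. Of the 9 microglial members, only P2ry12 passed the filter on low counts in PAX6+ cells alone, and 0 did in TBR2+ cells alone. Csf1r, Cx3cr1, C1qb and C1qc were thus tested only through their counts in PAX6-TBR2- cells. The direction of their calls was set in advance, and no conclusion is drawn from their p-values. C1qa, Tyrobp and Trem2 were at 0.156, 0.239 and 0.340 CPM in WT PAX6-TBR2- cells and had no read in WT PAX6+ cells, which puts them at least 2.70-fold, 4.14-fold and 5.88-fold higher, without a test. Aif1, which encodes the actin-binding protein IBA1, ranged from 0 to 0.183 CPM over all PAX6+ and TBR2+ libraries and reached 1.18 CPM in WT PAX6-TBR2- replicate 2.

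P2ry12 was the microglial member with the least separation. It measured 0.437, 0.820, 0.816 and 0.508 CPM in WT PAX6+ libraries and 1.24, 0.676, 1.18 and 0.970 CPM in WT PAX6-TBR2- libraries, and these groups overlapped. Its TBR2+ libraries were at 0.303 CPM or less in WT and 0.331 CPM or less in KO. The P2ry12 gene overlaps the Med12l gene on the opposite strand and shares 9 of its exon bases with Med12l exons. Med12l had means of 82.9 and 85.3 CPM in WT and KO PAX6+ cells against 17.4 to 27.7 CPM in the other groups. The part of Med12l reads, from exons or introns, in the P2ry12 level was not tested.

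Endothelial genes overlapped between the sorts far more than microglial genes did. Without Slc2a1, the sum of the other 10 members was 7.43, 8.06, 17.3 and 11.68 CPM in WT PAX6+ libraries, 16.2, 5.22, 14.7 and 7.53 CPM in WT TBR2+ libraries and 18.6, 20.3, 26.6 and 13.3 CPM in WT PAX6-TBR2- libraries. KO libraries held 9.39, 6.58, 14.7 and 2.55 CPM in PAX6+ cells, 15.61, 10.9, 13.1 and 3.61 CPM in TBR2+ cells and 24.01, 19.1, 27.0 and 15.64 CPM in PAX6-TBR2- cells. Within KO the PAX6-TBR2- libraries thus lay above the progenitor libraries, by a narrow margin. Replicate 4 was the lowest KO library in all 3 populations, and replicate 3 the highest in PAX6+ and PAX6-TBR2- cells of both genotypes. Whether a replicate number means the same material in different sorts was not tested. Libraries within a group spread widely.

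Among junction and adhesion genes, Cdh5 (VE-cadherin, the adhesion molecule of endothelial junctions) measured 1.22, 1.09, 2.13 and 1.52 CPM in WT PAX6+ libraries and 2.48, 3.55, 5.25 and 1.98 CPM in WT PAX6-TBR2- libraries (log2 fold change -1.13, SE 0.43, edgeR adjusted p = 0.02415). These groups overlapped, and the call was lost without WT PAX6+ replicate 1 (adjusted p = 0.05683) or replicate 2 (0.06779), or without WT PAX6-TBR2- replicate 3 (0.1303). In KO, Cdh5 was lower in PAX6+ libraries (1.34, 0.230, 0.877 and 0.170 CPM) than in PAX6-TBR2- libraries (2.79, 4.25, 2.73 and 2.13 CPM), with no overlap (-2.25, SE 0.49, edgeR adjusted p = 0.0003851). Pecam1, the adhesion molecule CD31, was lower in KO PAX6+ than in KO PAX6-TBR2- cells (-1.95, SE 0.47, edgeR adjusted p = 0.0009635) and was lower in TBR2+ than in PAX6-TBR2- cells of both genotypes (-1.36 in WT and -1.15 in KO, both called). The KO call of Pecam1 in TBR2+ cells was lost without KO TBR2+ replicate 2 (adjusted p = 0.06547) or replicate 4 (0.07643), or without KO PAX6-TBR2- replicate 3 (0.06427). Cldn5, the main claudin of brain endothelial tight junctions, was rare, at 0 to 2.62 CPM over all libraries, and its 2.62 CPM came from WT PAX6-TBR2- replicate 3. Esam, another junction protein, lay between 0.183 and 3.31 CPM.

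Receptors of angiogenic signals had higher means in PAX6-TBR2- than in progenitor cells. Kdr (VEGF receptor 2) had 1.66, 1.503, 1.95 and 2.64 CPM in WT PAX6+ libraries and 2.90, 3.38, 5.38 and 1.04 CPM in WT PAX6-TBR2- libraries, without a call (it was called without WT PAX6-TBR2- replicate 4, at -1.06 with adjusted p = 0.04797). In KO, Kdr was lower in PAX6+ than in PAX6-TBR2- cells (-1.79, SE 0.51, edgeR adjusted p = 0.00384), as were Flt1 (-1.51, SE 0.52, 0.01507) and the angiopoietin receptor gene Tek (-1.61, SE 0.52, 0.01002). The Flt1 call was lost without KO PAX6-TBR2- replicate 1 (adjusted p = 0.08406). Tek was also lower in TBR2+ than in PAX6-TBR2- cells, in WT (-2.11, SE 0.57, edgeR adjusted p = 0.004377) and in KO (-2.10, SE 0.54, edgeR adjusted p = 0.003056), and both calls were kept in every setting run. Flt1 was lower there in KO (-1.25, SE 0.49, edgeR adjusted p = 0.041), a call lost in 9 fits that left out 1 library (adjusted p up to 0.1784). Tie1, which encodes a partner of the TEK receptor, was lower in WT PAX6+ than in WT PAX6-TBR2- cells, at 0.175, 0.205, 0.690 and 0.610 CPM against 1.86, 0.845, 1.18 and 1.58 CPM (-1.73, SE 0.60, edgeR adjusted p = 0.01586), and this call was lost without WT PAX6+ replicate 2 (adjusted p = 0.05488). Eng was called only in KO TBR2+ against KO PAX6-TBR2- cells (-1.96, SE 0.74, edgeR adjusted p = 0.03381), and the call was lost in 5 of the fits that left out 1 library. Egfl7, a secreted endothelial factor, was called in no comparison and lay between 0 and 1.97 CPM.

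Slc2a1 ran the other way. It encodes GLUT1, the glucose transporter of the blood-brain barrier, which other cell types also express. Its libraries held 61.5, 51.4, 50.4 and 37.7 CPM in WT PAX6+, 32.8, 33.4, 30.6 and 25.7 CPM in WT TBR2+ and 16.4, 29.2, 29.4 and 27.6 CPM in WT PAX6-TBR2- cells. The WT PAX6+ libraries lay above all other WT libraries, with a log2 fold change of 0.68 over TBR2+ (SE 0.16, edgeR adjusted p = 0.0009608) and 0.92 over PAX6-TBR2- (SE 0.19, edgeR adjusted p = 0.0001598). In KO cells Slc2a1 stood 0.74 higher in PAX6+ (SE 0.19, edgeR adjusted p = 0.001804) and 0.52 higher in TBR2+ (SE 0.17, edgeR adjusted p = 0.01503) than in PAX6-TBR2- cells, and the TBR2+ call was lost without KO PAX6-TBR2- replicate 1 (0.42, adjusted p = 0.05842). Because most reads of the class belonged to it in most libraries, Slc2a1 was kept out of the endothelial sum above.

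**Figure D2:**
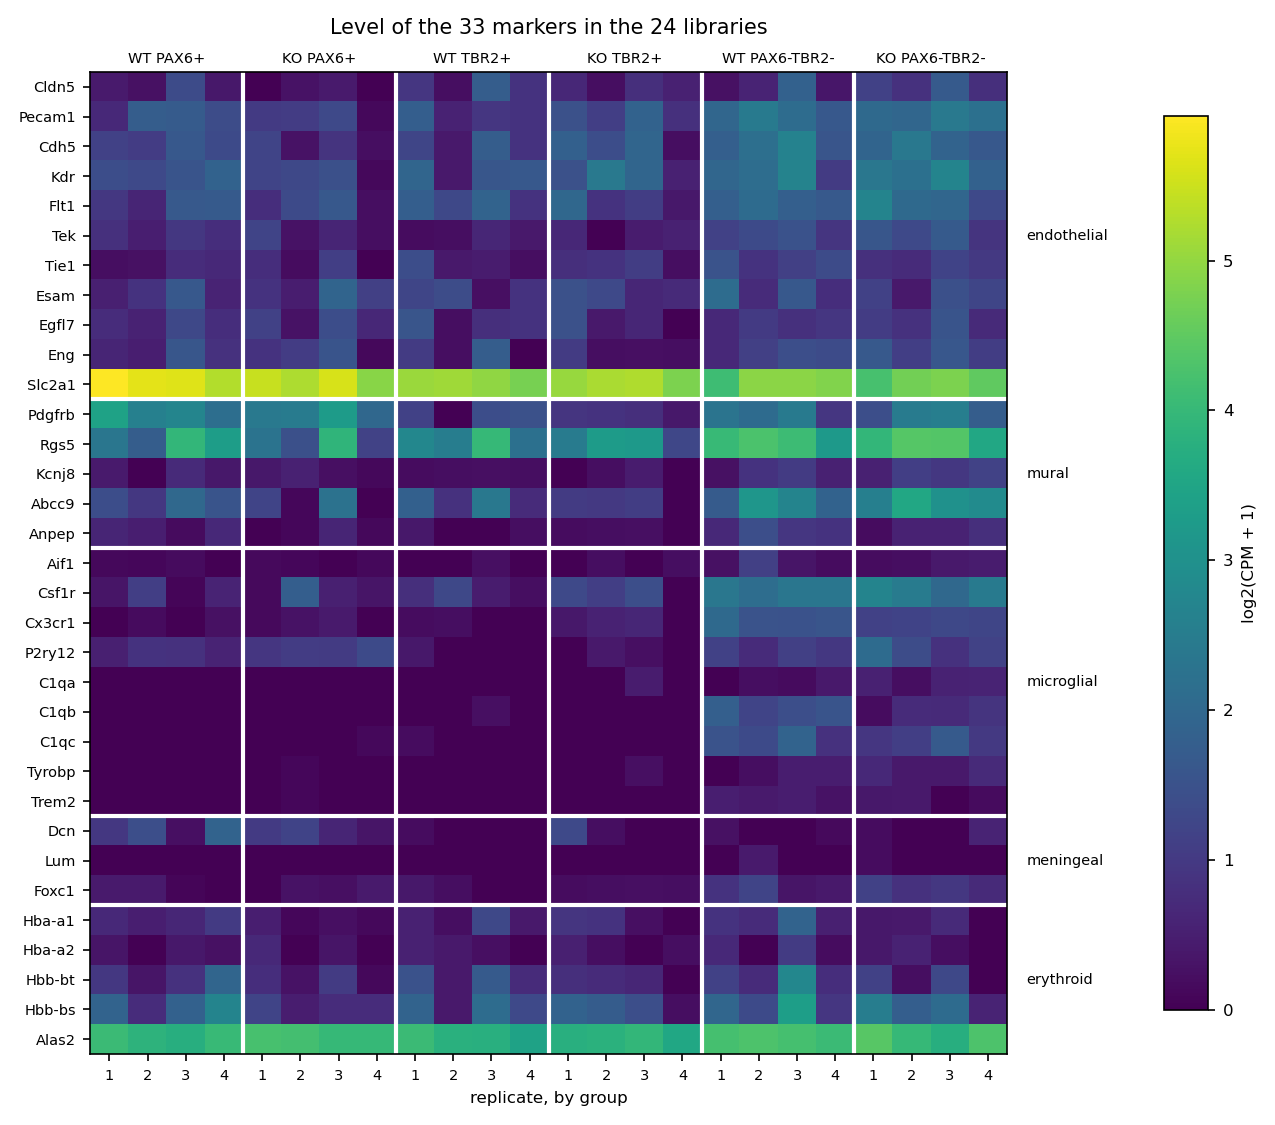
Level of each of the 33 members (rows, ordered by class) in each of the 24 libraries (columns, by group and replicate), with colour giving log2(CPM + 1). The PAX6-TBR2- columns are the brightest for most microglial and vascular members, the C1q genes, Tyrobp and Trem2 are empty or nearly so in PAX6+ and TBR2+ columns, Slc2a1 and Pdgfrb are highest in PAX6+ columns, and Alas2 differs little between columns.

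Mural genes split between 2 patterns. Rgs5, a G-protein regulator and a standard pericyte marker, measured 4.11, 2.39, 14.5 and 8.94 CPM in WT PAX6+ libraries, 5.76, 4.73, 14.9 and 3.60 CPM in WT TBR2+ libraries and 15.1, 18.4, 16.1 and 8.19 CPM in WT PAX6-TBR2- libraries. In WT, Rgs5 was not called against PAX6-TBR2- cells in PAX6+ (-0.94, edgeR adjusted p = 0.1238) or TBR2+ cells (-0.98, edgeR adjusted p = 0.05273). Both WT contrasts were called without the filter on low counts (adjusted p = 0.005663 and 0.0006783), with the replicate block (0.03135 and 0.003273) and without replicate 3 of the progenitor sort (-1.51, 0.02297, and -1.58, 0.00335). In KO it was lower than in PAX6-TBR2- cells in both PAX6+ (-1.68, SE 0.55, edgeR adjusted p = 0.01037) and TBR2+ cells (-1.52, SE 0.42, edgeR adjusted p = 0.00522). Abcc9, which encodes the regulatory subunit of the pericyte ATP-sensitive potassium channel, had the same order: its KO libraries held 1.34, 0.0765, 3.77 and 0 CPM in PAX6+ cells, 1.04, 0.993, 1.14 and 0 CPM in TBR2+ cells and 4.96, 11.0, 7.06 and 6.38 CPM in PAX6-TBR2- cells. Abcc9 was lower in both KO progenitor sorts than in PAX6-TBR2- cells, at -2.55 in PAX6+ (SE 0.65, edgeR adjusted p = 0.001724) and -3.20 in TBR2+ cells (SE 0.58, edgeR adjusted p = 0.0001252). Its WT contrasts were at -1.24 in PAX6+ (edgeR adjusted p = 0.08777) and -1.12 in TBR2+ cells (edgeR adjusted p = 0.07803). Both were called without the filter on low counts (adjusted p = 0.006434 and 0.01157). The PAX6+ contrast was also called without KO PAX6+ replicate 3 (0.03585) or 4 (0.04804). The TBR2+ contrast was also called without WT TBR2+ replicate 3 (-1.68, adjusted p = 0.01918) or WT PAX6-TBR2- replicate 4 (-1.36, 0.0432). Kcnj8, the pore subunit of that channel, and Anpep, a peptidase on the pericyte surface, stayed at 1.25 and 1.69 CPM or less.

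Pdgfrb, the PDGF receptor that pericytes need for recruitment, had its highest mean in PAX6+ cells. WT PAX6+ libraries held 9.88, 5.05, 5.52 and 3.45 CPM, WT TBR2+ libraries 1.21, 0, 1.65 and 1.80 CPM and WT PAX6-TBR2- libraries 3.93, 3.21, 4.46 and 0.934 CPM. PAX6+ libraries lay above TBR2+ libraries in WT (log2 fold change 2.33, SE 0.49, edgeR adjusted p = 0.0003059) and in KO (2.83, SE 0.54, edgeR adjusted p = 0.0001064), with no overlap in either. Against PAX6-TBR2- cells the WT difference was 1.05 (SE 0.44, edgeR adjusted p = 0.04219), the groups overlapped, and the call was lost without WT PAX6+ replicate 1 (0.70, adjusted p = 0.183) or replicate 3 (adjusted p = 0.0517), or without WT PAX6-TBR2- replicate 2 (0.05636) or replicate 4 (0.60, 0.2079). In KO no such call was made.

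Of the meningeal members, Dcn encodes the proteoglycan decorin, Lum encodes lumican and Foxc1 encodes a transcription factor of meningeal fibroblasts. Dcn measured 0.962, 1.71, 0.188 and 2.74 CPM in WT PAX6+ libraries, 0.152, 0, 0 and 0 CPM in WT TBR2+ libraries and 0.207, 0, 0 and 0.108 CPM in WT PAX6-TBR2- libraries. It was higher in WT PAX6+ than in WT TBR2+ cells (log2 fold change 4.62, SE 1.30, edgeR adjusted p = 0.004024) and than in WT PAX6-TBR2- cells (3.79, SE 0.91, edgeR adjusted p = 0.0009831), where the lowest PAX6+ library lay within the other group's range. Foxc1 was highest in PAX6-TBR2- cells, at 0.262 to 1.35 CPM in WT and 0.626 to 1.24 CPM in KO, and Lum had 3 reads in the whole series. Dcn and Foxc1 thus had their highest WT means in different populations.

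The globin genes sit in pairs of near-identical copies on chromosomes 11 and 7, and reads of such pairs can be assigned to either copy or dropped. The coding sequences of Hba-a1 and Hba-a2 differ at 1 of 429 bases, and those of Hbb-bt and Hbb-bs at 1 of 444 bases in the GENCODE transcripts compared. These stretches of 60 bases hold the single difference, in capitals, to show how little separates the copies. They cover coding positions 351 to 410 for the alpha globins and 385 to 444 for the beta globins.
Hba-a1: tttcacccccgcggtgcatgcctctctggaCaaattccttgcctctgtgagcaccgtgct
Hba-a2: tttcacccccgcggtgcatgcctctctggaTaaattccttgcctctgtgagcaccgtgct
Hbb-bt: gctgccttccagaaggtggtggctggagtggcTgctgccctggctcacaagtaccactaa
Hbb-bs: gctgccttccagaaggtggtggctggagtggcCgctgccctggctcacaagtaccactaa
The summed level of the 4 globin genes was 4.55, 1.37, 4.33 and 9.55 CPM in WT PAX6+ libraries, 5.46, 1.14, 7.15 and 2.46 CPM in WT TBR2+ libraries and 5.59, 2.87, 18.8 and 2.23 CPM in WT PAX6-TBR2- libraries. KO libraries ranged from 0.689 to 3.10 CPM in PAX6+, from 0.314 to 4.76 CPM in TBR2+ and from 0.5004 to 6.66 CPM in PAX6-TBR2- cells. The ranges of all 6 groups overlapped, and Hbb-bs was the only globin gene with enough counts for a test between genotypes. Hbb-bs was called lower in KO PAX6+ than in KO PAX6-TBR2- cells (-1.85, SE 0.75, edgeR adjusted p = 0.0348). These groups overlapped, and the call was lost in limma-voom (adjusted p = 0.1441) and without KO PAX6+ replicate 2 (0.09838), 3 (0.06559) or 4 (0.06448) or KO PAX6-TBR2- replicate 1 (0.1384) or 3 (0.06854).

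Alas2, which encodes the erythroid form of the first enzyme of haem synthesis, did not follow the globins. It lay between 9.82 and 20.3 CPM in all 24 libraries, including KO TBR2+ replicate 4, where the 4 globin genes together were at 0.314 CPM. Of its 2403 exon bases, 311 (12.9%) are shared with Apex2 on the opposite strand, a DNA repair gene at 54.4 to 67.6 CPM on average in the 6 groups. The part of Apex2 reads in the Alas2 level was not tested. Alas2 was lower in WT TBR2+ than in WT PAX6-TBR2- cells (-0.44, SE 0.17, edgeR adjusted p = 0.03746), a call that was lost without filtering low counts and in 7 fits that left out 1 library.

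Over all members, the counts called between populations were set beside those of all genes tested. WT PAX6+ against WT PAX6-TBR2- cells gave 9 calls among the 22 members tested (3 higher and 6 lower), where 65.5% of all genes were called (32.4% higher and 33% lower), and the members' median was -0.82 against -0.01 for all genes. KO PAX6+ against KO PAX6-TBR2- cells gave 13 of 22 (1 higher and 12 lower; 64.6% of all genes, 32.2% higher and 32.4% lower), with a median of -1.56. WT TBR2+ against WT PAX6-TBR2- cells gave 7 of 16, all lower (50.4% of all genes, 26.1% lower), with a median of -1.05, and KO TBR2+ against KO PAX6-TBR2- cells gave 11 of 16, 1 higher and 10 lower (48.9% of all genes, 24.1% higher and 24.9% lower), with a median of -1.39. PAX6+ against TBR2+ cells gave 3 of 15 in WT, all higher (59.8% of all genes, 30% higher), and 1 of 15 in KO, also higher (58.9% of all genes, 29.5% higher). The share called was thus below the background in these contrasts except in KO TBR2+ against KO PAX6-TBR2- cells, and the members leaned in 1 direction: 19 of 22 lay below 0 in the first contrast, 18 of 22 in the second and 15 of 16 in each of the other contrasts with PAX6-TBR2- cells. These contrasts share their PAX6-TBR2- libraries and test only members that passed the filter on low counts. In PAX6+ cells alone 12 members passed it, and in TBR2+ cells alone 6. Members that passed only through their counts in PAX6-TBR2- cells were bound to lie below 0. The lean was thus partly set by the filter, and no conclusion is drawn from it. Setting the genes with no read in a group to their floor leaves these medians where they are.

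**Figure D3:**
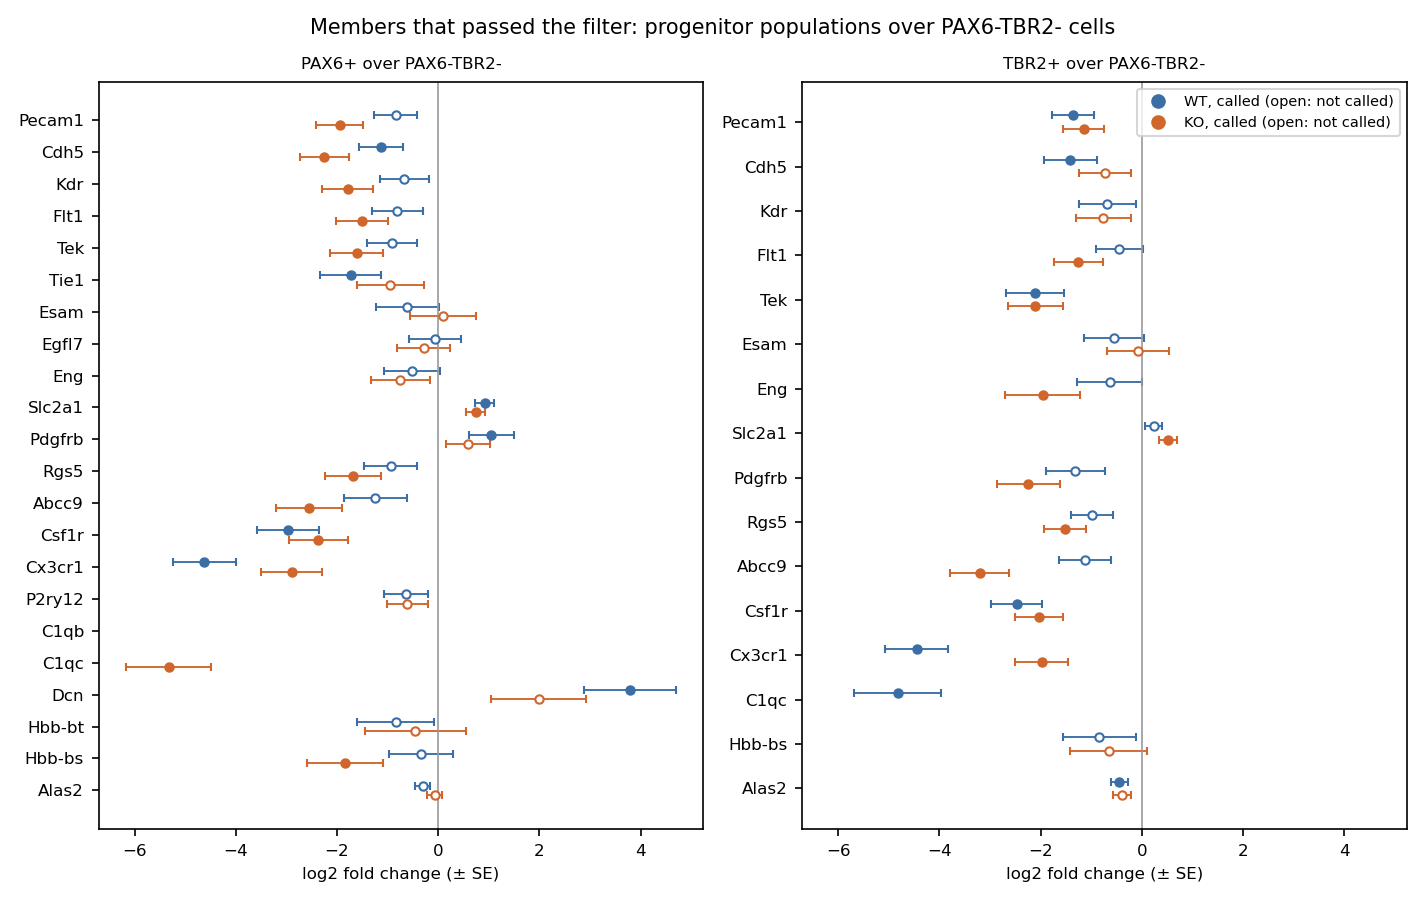
Log2 fold change of PAX6+ and TBR2+ cells over PAX6-TBR2- cells for each member tested, in WT and KO, with bars of 1 SE to each side, filled points where edgeR called the difference and open points where it did not. Points are left out where the progenitor group had no read (C1qb in WT and KO PAX6+, C1qc in WT PAX6+ and in KO TBR2+). Microglial and most vascular members lie below 0, while Slc2a1, Pdgfrb and Dcn lie above it in PAX6+ cells of both genotypes. Of these, Pdgfrb and Dcn are called only in WT.

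Further genes of the same cell types, from lists drawn from general knowledge, showed how far each list held in radial glia. In WT PAX6+ against WT PAX6-TBR2- cells, 2 endothelial genes of 9 tested were higher and 2 lower, where 32.4% of all genes were higher and 33% lower. The higher genes were Mfsd2a (41.4 against 20.02 CPM; log2 fold change 1.00, SE 0.15, edgeR adjusted p = 4.537e-06) and Slco1c1 (7.55 against 0.803 CPM; 3.10, SE 0.57, edgeR adjusted p = 5.633e-05), transporters of lysophosphatidylcholine and thyroid hormone at the blood-brain barrier. Ptprb, a receptor phosphatase of endothelial junctions, was lower (-1.61, SE 0.41, edgeR adjusted p = 0.001683). Abcb1a, a drug efflux pump gene of the same list, had 0.313 against 0.322 CPM, too few counts for the test.

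The other lists were mixed in the same contrast, with 32.4% of all genes higher and 33% lower. Of 5 mural genes tested 1 was higher and 1 lower, and the higher one was Notch3, a Notch receptor that radial glia also express (91.7 against 5.88 CPM; log2 fold change 3.82, SE 0.30, edgeR adjusted p = 2.279e-10). Of 7 microglial genes 2 were higher and 4 lower. Sall1, a zinc finger factor of both microglia and neural progenitors, measured 370 against 21.0 CPM (4.06, SE 0.25). The lysosomal protease gene Ctss had 0 reads in all 8 PAX6+ libraries against 1.45, 1.69, 1.31 and 0.791 CPM in WT PAX6-TBR2- libraries, and Laptm5 (-5.01, SE 0.83) and Gpr34 (-1.46, SE 0.30) were lower as well. With no read in PAX6+ cells, Ctss could pass the filter on low counts only through PAX6-TBR2- cells. Of 16 meningeal genes listed 4 were tested, and all 4 were higher in PAX6+ cells: Zic1 (3.43), Ogn (4.67), Fn1 (0.65) and Col1a2 (1.72 on the log2 scale). Zic1 was called lower in WT PAX6+ than in WT TBR2+ cells, where 59.8% of all genes were called. That call was lost without WT PAX6+ replicate 3 (-0.63, edgeR adjusted p = 0.05839) or WT TBR2+ replicate 1 (-0.43, 0.1387). The Col1a2 call was lost without WT PAX6-TBR2- replicate 4 (1.31, adjusted p = 0.0593). Of 3 erythroid genes, the mitochondrial iron importer gene Slc25a37 was higher (2.78, SE 0.18).

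KO and WT were then compared in each population, to ask whether the marker levels differ between the genotypes of a sort. In PAX6+ cells edgeR called 0 of the 12 members tested, where 3.64% of 14212 genes were called. An unadjusted p under 0.05 was reached by 3 members (Cdh5, Slc2a1 and Hbb-bs), DESeq2 called 1 and limma-voom 0. Of the 12, 10 lay below 0 and 2 above, and the median was -0.55 against 0.00 for all genes. TBR2+ cells gave 0 of 6 (1.76% of all genes), with 0 at an unadjusted p under 0.05 and a median of -0.10, and PAX6-TBR2- cells 0 of 12 (0.00774% of all genes), with 0 at an unadjusted p under 0.05 and a median of 0.18. In both populations DESeq2 and limma-voom also called 0.

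**Figure D4:**
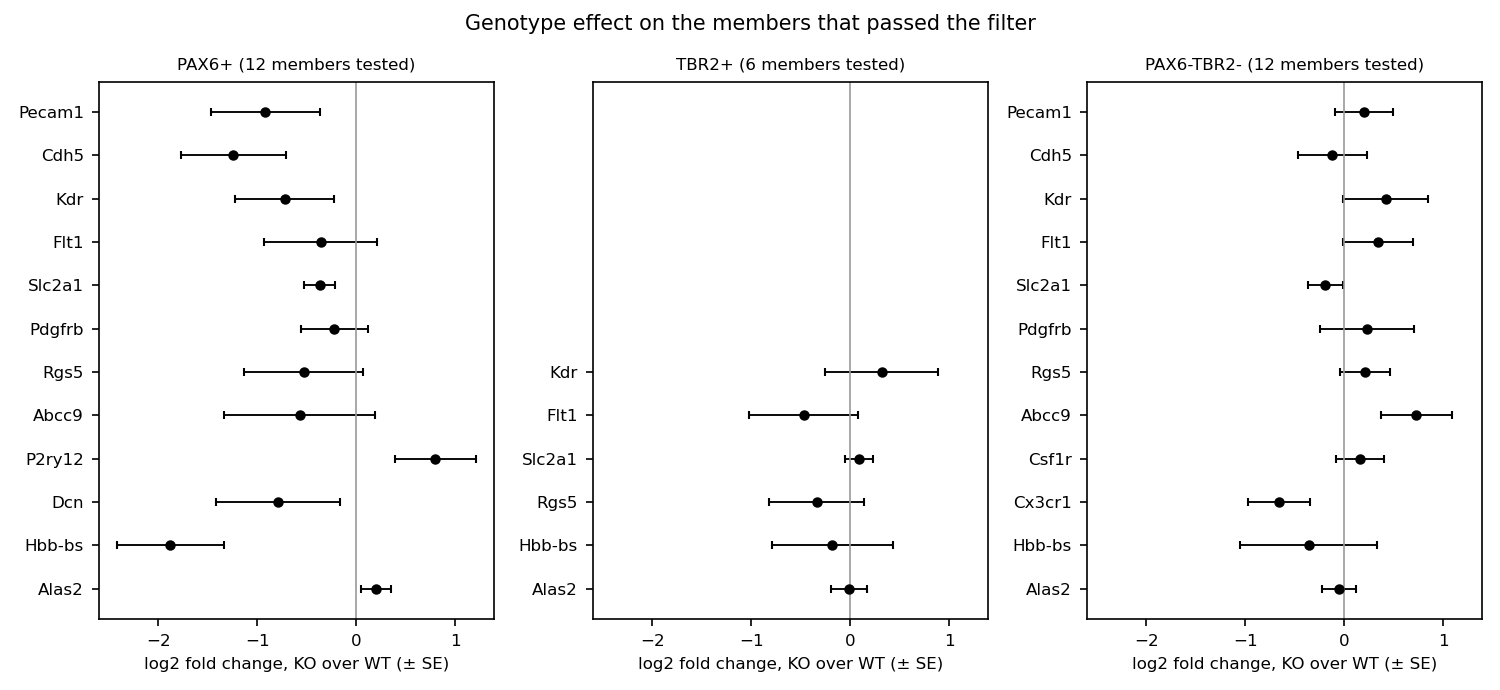
Log2 fold change of KO over WT for every member tested in PAX6+, TBR2+ and PAX6-TBR2- cells, with bars of 1 SE. No point is called by edgeR, 10 of 12 lie below 0 in PAX6+ cells, and Hbb-bs at -1.88 is the farthest from 0.

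Hbb-bs was closest to a call. It measured 2.71, 0.683, 2.64 and 5.49 CPM in WT PAX6+ libraries and 1.34, 0.383, 0.702 and 0.680 CPM in KO PAX6+ libraries (log2 fold change -1.88, SE 0.54, edgeR adjusted p = 0.07615). The groups overlapped through replicate 2 of WT, which lay within the KO range, while the other WT libraries lay above it. With the replicate number as a block, which the PAX6+ pairing check allowed, Hbb-bs was called (-1.76, adjusted p = 0.01512) and so was Slc2a1 (-0.37, adjusted p = 0.02799). The block also raised the calls over all 14212 genes from 517 to 1045. Hbb-bs was also called by DESeq2 (-1.90, adjusted p = 0.01928), without the filter on low counts (adjusted p = 0.001106) and without WT PAX6+ replicate 2 (-2.21, adjusted p = 0.01314). In limma-voom its adjusted p was 0.279, and without WT PAX6+ replicate 4 it was 0.2741. In TBR2+ and PAX6-TBR2- cells Hbb-bs stood at -0.18 (SE 0.61) and -0.36.

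Slc2a1 in PAX6+ cells was at 42.8, 36.3, 47.4 and 28.9 CPM in KO libraries, against 37.7 to 61.5 CPM in WT, and the groups overlapped (-0.37, SE 0.16, edgeR adjusted p = 0.3531). Cdh5 was at -1.24 (SE 0.53, edgeR adjusted p = 0.3353) and Pecam1 at -0.92 (SE 0.55). The mural genes Pdgfrb (-0.22, SE 0.34), Rgs5 (-0.53, SE 0.60) and Abcc9 (-0.57, SE 0.76) had errors as large as or larger than their differences. P2ry12 was the only member whose PAX6+ groups did not overlap, with KO libraries at 0.929, 1.07, 1.05 and 1.53 CPM above WT libraries at 0.820 CPM or less (0.80, SE 0.41, edgeR adjusted p = 0.4704). That is 1 of 12 members, where 8.44% of all genes had groups that did not overlap.

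In TBR2+ cells 0 of 6 members had separate groups (6.77% of all genes), and Slc2a1 and Alas2, with the smallest errors, were at 0.09 (SE 0.14) and -0.01 (SE 0.18). In PAX6-TBR2- cells 1 of 12 members did (4.16% of all genes). This was Cx3cr1, with 1.24, 1.31, 1.45 and 1.38 CPM in KO against 1.84 CPM or more in WT libraries (-0.66, SE 0.31, edgeR adjusted p = 0.7489). C1qb had too few counts for the test, and its KO PAX6-TBR2- libraries held 0.155, 0.654, 0.642 and 0.876 CPM, all below the lowest WT library at 1.35 CPM. Over 6 settings in which C1qb could be tested its log2 fold change was -1.72 to -1.48 and its lowest adjusted p was 0.2728. Its partner C1qc overlapped between genotypes (0.930, 1.15, 2.25 and 1.00 CPM in KO), as did Csf1r, at 5.42, 4.58, 3.05 and 4.50 CPM in KO (0.16).

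The difference between populations in the genotype effect was tested as an interaction. No member was called among 15 (PAX6+ against TBR2+; 0.612% of all genes), 22 (PAX6+ against PAX6-TBR2-; 0.775%) or 16 (TBR2+ against PAX6-TBR2-; 0.051%). An unadjusted p under 0.05 was reached by 1 member (Dcn), 0 members and 2 members (Abcc9 and Cx3cr1), and DESeq2 and limma-voom called 0 in each. The larger number of members called lower in KO PAX6+ than in WT PAX6+ cells against the PAX6-TBR2- sort is therefore not shown to be a difference between genotypes.

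In PAX6+ cells 5 of the 22 genes of the further lists that were tested differed between genotypes, where 3.64% of all genes did; these lists were chosen with earlier results of these data known. In PAX6+ cells 2 of 7 endothelial genes tested were lower in KO. Erg, the ETS factor of endothelial cells, measured 3.85, 0.888, 1.51 and 1.32 CPM in WT against 0.310, 0.230, 0.263 and 0.425 CPM in KO libraries (log2 fold change -2.57, SE 0.54, edgeR adjusted p = 0.01095). The groups did not overlap, and the call was lost without WT PAX6+ replicate 1 (-1.98, adjusted p = 0.05166) or KO PAX6+ replicate 2 (-2.44, adjusted p = 0.05184). Slco1c1 was the other (-2.03, edgeR adjusted p = 0.03449). Its groups overlapped, it was named after its values were seen, and it was not called by DESeq2 (adjusted p = 0.08181) or limma-voom (0.1622), nor without WT PAX6+ replicate 3 (-1.41, 0.2158) or 4 (0.05269) or KO PAX6+ replicate 1 (0.07708) or 2 (0.1135). Of 5 microglial genes tested 1 was higher in KO: Itgb5, an integrin beta chain that many cell types express, at 2.01, 2.39, 3.33 and 1.63 CPM in WT and 7.33, 6.12, 6.23 and 4.33 CPM in KO (1.34, SE 0.27, edgeR adjusted p = 0.007861), a call kept in every setting run.

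Of 4 meningeal genes tested in PAX6+ cells 2 were lower in KO. Col1a2, a chain of type I collagen, measured 2.01, 1.16, 1.57 and 1.22 CPM in WT and 0.413, 0.459, 0.175 and 0.340 CPM in KO (-2.06, SE 0.44, edgeR adjusted p = 0.01243), with a lost call without WT PAX6+ replicate 1 (adjusted p = 0.05794). Zic1, named after its values were seen because its groups overlapped, was at -0.61 (edgeR adjusted p = 0.04301), a call lost in limma-voom (0.08784), in the fit of all 24 libraries (0.3171) and on leaving out any PAX6+ library but WT replicate 3 (0.06924 to 0.1892). No gene was called among 3 mural and 3 erythroid genes in PAX6+ cells. In TBR2+ and PAX6-TBR2- cells none was called in any of the 5 lists (1.76% and 0.00774% of all genes). The member Dcn stood at -0.79 (SE 0.63) in PAX6+ cells, and Lum and Foxc1 had too few counts there for a test.

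The ligands of the member receptors were described last, since neural cells supply many of them to vessels and microglia. Vegfa, ligand of the Kdr and Flt1 receptors, measured 73.4, 77.8, 76.0 and 66.1 CPM in WT PAX6+ cells and was 1.79-fold higher there than in WT TBR2+ cells (log2 fold change 0.84, SE 0.14, edgeR adjusted p = 2.558e-05). Vegfb, Vegfc, Angpt2 and Csf1 were higher in WT PAX6+ than in both other WT populations, Csf1 at 18.6 CPM against 9.38 CPM in the TBR2+ sort and 8.11 CPM in the PAX6-TBR2- sort. The Wnt ligands for brain endothelium were split: Wnt7a was at 50.0, 2.80 and 16.7 CPM and Wnt7b at 4.67, 67.2 and 139 CPM in WT PAX6+, TBR2+ and PAX6-TBR2- cells. Of 10 ligands tested, 6 were higher and 2 (Wnt7b and Angpt1) lower in WT PAX6+ than in WT PAX6-TBR2- cells. Of all genes, 32.4% were higher and 33% lower in that contrast.

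**Figure D5:**
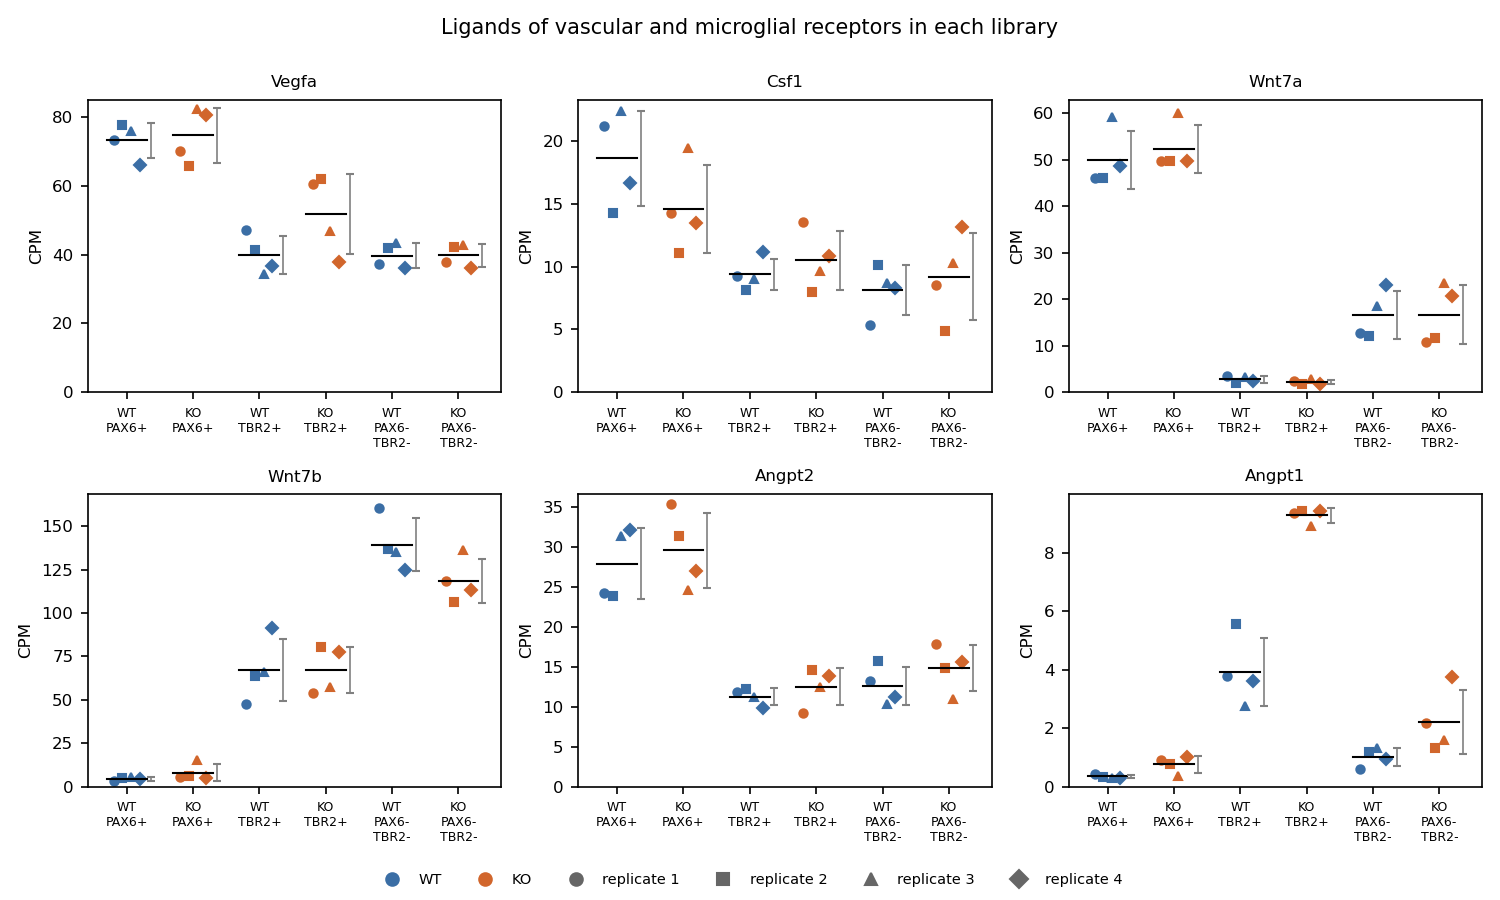
Level (CPM, linear axes from 0) of 6 ligands in every library, with 1 point per library, a black line at the mean of each group of 4 and a grey bar of 1 SD to each side. Vegfa, Csf1, Wnt7a and Angpt2 have their highest means in PAX6+ cells and Wnt7b in PAX6-TBR2- cells, and the 4 KO TBR2+ libraries of Angpt1 lie above the 4 WT TBR2+ libraries.

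Between genotypes, 0 of 8 ligands tested were called in PAX6+ cells (3.64% of all genes) and 0 of 8 in PAX6-TBR2- cells (0.00774%). In TBR2+ cells 1 of 7 was called (1.76% of all genes). The gene called was Angpt1, the agonist ligand of the TEK receptor. Its WT TBR2+ libraries held 3.79, 5.55, 2.75 and 3.60 CPM and its KO TBR2+ libraries 9.37, 9.43, 8.90 and 9.43 CPM, a 2.34-fold difference with no overlap (log2 fold change 1.23, SE 0.23, edgeR adjusted p = 0.01291). The call was kept in every setting run. Angpt1 was at 0.349 and 0.766 CPM in WT and KO PAX6+ cells and at 1.01 and 2.21 CPM in PAX6-TBR2- cells, where it had too few counts for the test. Its receptor gene Tek had 0.152, 0.163, 0.550 and 0.327 CPM in WT and 0.595, 0, 0.379 and 0.471 CPM in KO TBR2+ libraries, also too few to test.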

How the data were processed

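Bulk RNA-seq of sorted cells was deposited as raw read counts per gene, in 1 table for PAX6+ and 1 for the other sorts with a column for each sequencing lane, and as normalized values. Per the labels, RNA was amplified by single primer isothermal amplification before library preparation. FastQC, cutadapt, STAR, featureCounts, DESeq2 and the build mm10 are listed in the submitters' processing notes, without versions. No strand setting for the counting is stated there. The deposited counts of both lanes were summed for each of the 24 libraries, and the 39017 gene identifiers were named with GENCODE M21 (37693 named, 1324 unnamed). The normalized tables hold counts that the authors divided by size factors (unit signal). Whole reads could be recovered from them within a tolerance of 1e-06, and they equalled the raw counts in every PAX6+ library. In the other sorts only 1 of 16 columns equalled a raw library, and group totals were 1.44 to 1.70 times the raw totals. The raw counts of these sorts, on which all tests rest, may thus hold only part of the reads the authors normalized. The recovered reads served as an alternative.

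Tests used edgeR 4.0.16 in R 4.3.3 (quasi-likelihood test, filterByExpr, TMM scaling, Benjamini-Hochberg adjustment over all genes tested, threshold 0.05), with the 4 libraries of each of the groups compared, or 4 groups for contrasts between populations. A gene past that threshold is said to be called. SE is the log2 fold change divided by the root of the F statistic. DESeq2 1.42.0, limma 3.58.1 (voom), other scaling, no filter, a replicate block, all 24 libraries in 1 fit, recovered reads and leaving out each library were alternatives. CPM were scaled by TMM over all 24 libraries, and a count of 0 was bounded by 3 counts over the group (counting error only).

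The numbering of replicates was checked by the correlation of same-numbered libraries' deviations. It was 0.24, 0.20, 0.19 and 0.44 in PAX6+, above the 0.1 required of every pair. WT replicate 3 and KO replicate 1 of PAX6+, which differ in number, also passed that bar, at 0.12. The check thus does not prove the pairing, and the main tests used none. In TBR2+ it was 0.36, 0.05, 0.05 and 0.34 and in PAX6-TBR2- 0.30, 0.08, 0.32 and 0.34, so the numbers were taken to pair only PAX6+ libraries. No 2 libraries of a group were alike within sampling noise (chi-square per degree of freedom 5.65 to 45.5 over 36 pairs, against 0.976 to 1.02 between lanes of a library).

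Members, lists and tests were chosen with earlier results of these data known, and the lists come from general knowledge of the cell types. All members are accounted for. From each further list at most 4 genes a comparison were named, those with the lowest adjusted p among called genes whose groups did not overlap, besides ligands and sort genes. Promoter windows are RefSeq sequence of GRCm38.p6.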

Additional observations from a re-analysis of the deposited data

Results flagged for a closer look

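In 7 of 90 groups of 4 libraries, 1 library stood apart from the other 3 by more than the 95% limit of Dixon's test, which chance alone exceeds in about 1 of 20 groups. The endothelial and erythroid sums here cover every member of the class, so they include Slc2a1 and Alas2, unlike the sums given above. Replicate 4 of KO TBR2+ was low in the summed endothelial level, at 30.2 CPM with the next library at 46.8 CPM (3.61 CPM without Slc2a1). It was also low in the summed erythroid level, at 11.0 CPM with the next at 16.8 CPM. Replicate 1 of the same group was high in the summed meningeal level, at 1.64 CPM with the next at 0.331 CPM. In KO PAX6-TBR2- cells 1 library was high in the summed erythroid level, at 27.0 CPM with the next at 19.1 CPM. In WT PAX6-TBR2- cells Slc2a1 had a low library at 16.4 CPM (next 27.6 CPM), Csf1r a low library at 3.38 CPM (next 4.06 CPM) and Cx3cr1 a high library at 3.11 CPM (next 1.98 CPM). No member's genotype effect differed between populations in the test of that difference.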

How the results depend on the processing

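For KO over WT in PAX6+ cells the count of members called was 0, and it was 1 with DESeq2, 1 without the filter on low counts, 2 with the replicate block and 0 to 1 on leaving out each library (1 without WT PAX6+ replicate 2). In TBR2+ and PAX6-TBR2- cells leaving out each library gave 0 to 0. For PAX6+ over TBR2+ in KO the count of 1 became 2 with DESeq2, 4 without the filter, 2 with the replicate block and 1 to 4 on leaving out each library. The 4 came without KO TBR2+ replicate 4, where Cdh5 (-1.90, adjusted p = 0.008723), Hbb-bs (-1.59, 0.03837) and Kdr (-1.38, 0.04463) were called lower besides Pdgfrb, and the count was 2 without WT TBR2+ replicate 2 or 3, KO PAX6+ replicate 1 or KO TBR2+ replicate 1. The WT count stayed at 3 to 3. Against PAX6-TBR2- cells, WT PAX6+ gave 9 calls (14 without the filter, 7 to 11 on leaving out each library), KO PAX6+ 13 (12 to 15), WT TBR2+ 7 (14 without the filter, 5 to 10) and KO TBR2+ 11 (9 to 12). Leaving out the deepest library, WT PAX6-TBR2- replicate 4, gave 8, 14, 10 and 11 calls. The 3 interactions gave 0 to 0. The replicate block gave 12, 14 and 8 calls in WT PAX6+, KO PAX6+ and WT TBR2+ over PAX6-TBR2- cells and moved the counts not given here by less than 1.5 times. The pairing was met only within PAX6+ libraries.

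Class sums rose when counts were divided by library totals without mitochondrial genes and without TMM scaling. The values in brackets are TMM-scaled sums, so the total and the scaling changed together. The endothelial sums hold Slc2a1 unless stated, and the erythroid sums hold Alas2. Endothelial sums became 93.4 CPM (from 61.4) in WT PAX6+, 52.7 (41.5) in WT TBR2+, 55.9 (45.4) in WT PAX6-TBR2-, 71.1 (47.1) in KO PAX6+, 54.3 (43.6) in KO TBR2+ and 54.3 (44.2) in KO PAX6-TBR2- cells. Without Slc2a1 they became 16.85 (11.12) in WT PAX6+ and 24.21 (19.71) in WT PAX6-TBR2- cells, so the order of these groups turned on that gene. Erythroid sums became 29.2 (19.2) in WT PAX6+, 21.3 (16.8) in WT TBR2+, 27.0 (17.9) in KO PAX6+, 19.4 (15.6) in KO TBR2+ and 25.3 (20.6) in KO PAX6-TBR2- cells. The mural sum became 24.4 (16.1) in WT PAX6+, the microglial sum 1.98 (1.30) in WT PAX6+, 14.7 (11.9) in WT PAX6-TBR2- and 13.2 (10.7) in KO PAX6-TBR2-, and the meningeal sum 1.46 (0.965) in KO PAX6+ cells. With no scaling between libraries but mitochondrial genes kept, the endothelial sum was 77.2 in WT PAX6+ cells. The erythroid sum was then 24.1 in WT PAX6+ and 22.4 in KO PAX6+ cells. The cause of these changes in the counts of calls was not tested. Among 4020 values of single genes under other settings, 3835 kept their direction and their side of the threshold, 140 lost a call, 45 gained one and 0 reversed. Counts of 1 or a few reads a library limit what can be seen for Lum, Aif1, C1qa, Tyrobp and Trem2.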
